A study of Mus musculus with 3 samples.

Results

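Primed mouse epiblast stem cells (mEpiSCs) were compared with naive mouse embryonic stem cells (mESCs) in 2i, array against array, over all genes that could be named. The comparison used 2 of the series' 3 arrays, and for each gene it was the log2 intensity on the mEpiSC array minus that on the 2i array. Of 22180 genes on the array, 14223 were compared, which means that the brighter of both arrays was above its background. The genes described here are the 1349 of these that were at least 2-fold apart, 644 of them higher and 705 lower in mEpiSCs. That is 4.53% of the genes compared on the higher side, 4.96% on the lower side and 9.48% in all, and every share of a gene list below is to be read against these.

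The cells of all 3 arrays came from the EB3 line of mouse embryonic stem cells and were grown in N2B27, a defined medium without serum. The 2i culture was kept for 34 days with 2 µM CHIR99021, an inhibitor of the kinase GSK3, and 2 µM PD0325901, an inhibitor of the kinase MEK. The mEpiSCs had been induced from EB3 mESCs, and their medium held bFGF at 12 ng/ml beside 20 ng/ml Activin A. The labels give no length for that culture. The remaining array, whose levels are given beside named genes, held EB3 mESCs after 64 days in 2 µM PD0325901 and 20 ng/ml Activin A (Activin+PD), so it shared Activin A with the mEpiSCs and the MEK inhibitor with 2i. The medium, the differentiation state, the line's conversion and the time in culture therefore changed together between mEpiSCs and 2i and cannot be told apart. Each array is 1 culture, and the labels do not say how many mEpiSC lines or clones were made. With 1 array per group there was no test, the number of arrays limits the precision, and "higher" and "lower" describe these arrays. Differences of mEpiSC and of Activin+PD from 2i share the 2i array, so levels are set side by side and no overlap between them is given. An array's background was the 95th percentile of 1405 olfactory and vomeronasal receptor probe sets, an intensity of 48.1 in 2i, 45.4 in Activin+PD and 47.5 in mEpiSCs.

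Naive cells resemble the epiblast before implantation, and a network of transcription factors such as Zfp42, Klf4 and Tfcp2l1 marks them. Primed cells resemble the epithelial epiblast after implantation, which FGF, acting through the kinase ERK, and Activin or Nodal, acting through SMAD2 and SMAD3, hold in a state ready to enter the germ layers. In 2i, ERK activation is blocked and beta-catenin is stabilised, and both support the naive state.

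The 4 markers used to check the labels followed them. They were also ranks 1 and 2 on each side of this comparison among genes above background on both arrays. Their order is therefore no independent check of the labels. Fgf5, a ligand of the early post-implantation epiblast, had a log2 level of 5.60 in 2i, 7.08 in Activin+PD and 10.88 in mEpiSCs. Dusp6, a phosphatase that switches ERK off, stood at 6.52, 9.09 and 11.14 in the same order. Both were highest in mEpiSCs and intermediate in Activin+PD, and the mEpiSC level was 38.8-fold and 24.5-fold that in 2i, although Fgf5 was only just above background in 2i. Zfp42 stood at 11.18, 11.45 and 5.94, and Jam2, a junctional adhesion molecule, at 11.18, 11.39 and 5.65. Both mESC arrays were high for these genes and the mEpiSC array was close to background, a difference of -5.24 for Zfp42 and -5.53 for Jam2.

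Most differences were small. Of the 644 higher genes, 490 were 2- to 4-fold apart, 112 were 4- to 8-fold, 33 were 8- to 16-fold and 9 were more than 16-fold apart. Of the 705 lower genes, the same classes held 524, 123, 42 and 16. The median difference over all genes compared was 0.030, and 12874 genes lay within 2-fold. On the dimmer array, 143 of the higher and 160 of the lower genes were not above background, and for those the difference is given as "at least", the brighter level minus the background of the dimmer array. At the limit itself, the BMP antagonist gene Chrd was just inside at 1.002 and the BMP receptor gene Bmpr2 just outside at 0.999, while Snx1, a sorting nexin, was just inside at -1.003 and the copper chaperone gene Ccs just outside at -0.9999. Over 600 genes that had several probe sets above background, the error of a single probe set had a standard deviation of 0.36. It was taken from how far a gene's probe sets differed, and the gap between them spreads wider than that. The value covers probe set error and not the variation between cultures. Of 64 genes apart that had another probe set compared, 59 agreed in sign and 27 were 2-fold apart on both.

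**Figure D1:**
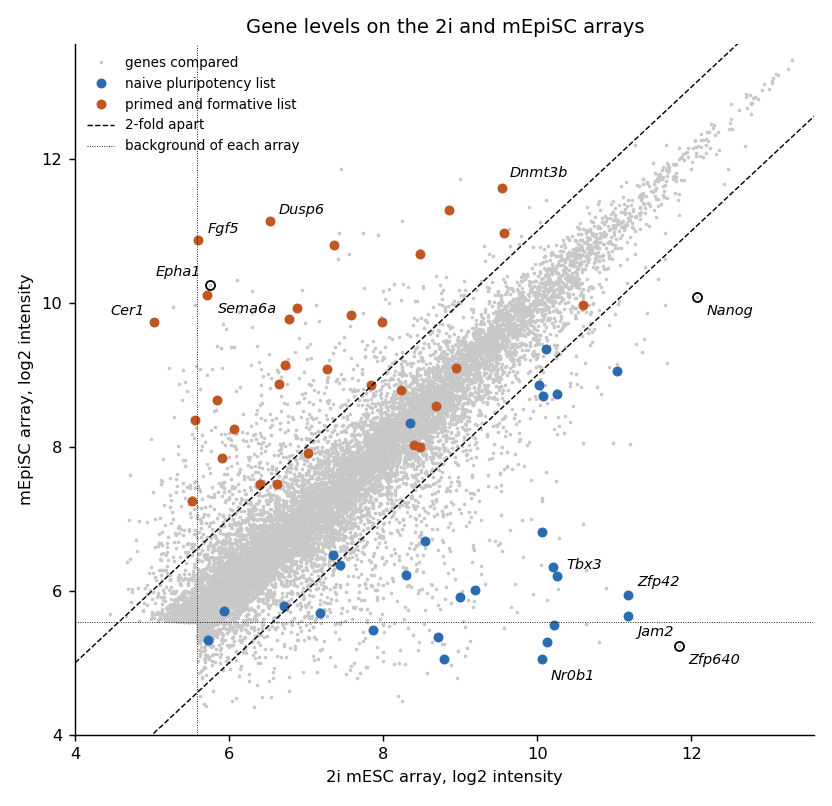
Log2 intensity of each gene compared (grey points) on the 2i array (horizontal axis) and the mEpiSC array (vertical axis), with the naive list in blue and the primed and formative list in orange; dashed lines mark 2-fold differences, dotted lines each array's background, and 3 genes outside both lists are circled. The naive members spread below the lower dashed line, with Zfp42 and Jam2 close to background in mEpiSCs, and 23 of 31 primed members lie on or above the upper one.

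The naive list was lower in mEpiSCs almost throughout. It was chosen with earlier results of these data known and holds the check markers Zfp42 and Jam2, so its share is a description only. Of 27 naive pluripotency genes compared, 21 were at least 2-fold lower and 0 higher, with a median difference of -2.08. Beside the transcription factor genes at the top of that range, Tbx3 stood at 10.26 in 2i, 10.36 in Activin+PD and 6.20 in mEpiSCs, and Nr5a2, a nuclear receptor that can activate Pou5f1, at 10.21, 10.04 and 6.33. For both genes the mESC arrays were close to each other and the mEpiSC array was far below. Klf2 differed by -3.25 and the adhesion molecule gene Pecam1 by -3.17, and Morc1, a germ cell chromatin protein, was lower by at least 3.15. Smaller differences were those of the lysosomal mannosidase gene Manba at -1.85, of Fgf4, the FGF that mESCs make themselves, at -1.52, and of Sox15 at -1.09. The 6 members within 2-fold were Dppa3 (-0.92), Gbx2 (-0.85), Klf5 (-0.75), Trpm1, Dppa5a and Stat3, the last at 8.35 in 2i and 8.33 in mEpiSCs.

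Genes of the primed and formative epiblast were higher, 23 of 31 compared, with 0 lower and a median of 2.05. This list, which holds the check marker Fgf5, was likewise chosen with earlier results of these data known. Sema6a, a membrane-bound semaphorin, stood at 5.71 in 2i, 6.52 in Activin+PD and 10.11 in mEpiSCs. Pou3f1, a POU factor also called Oct6, was at 5.84, 6.08 and 8.65, and Grhl2, an activator of epithelial genes, was higher by at least 1.65. For Sema6a and Pou3f1 the 2i array was near background and the Activin+PD array was closer to it than to mEpiSCs. Fgf15, a secreted FGF, and Ina, a neurofilament-like protein, differed in that respect, with Activin+PD levels of 8.71 and 9.95 that were above the mEpiSC levels of 8.25 and 9.74. A second probe set of Fgf15 gave a difference of 0.09. Members within 2-fold included the ligand gene Nodal (-0.11), Zic2 (0.16) and Dnmt3a (-0.49).

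The core pluripotency list was divided, with 3 of 19 members higher, 6 lower and a median of -0.090. Pou5f1 was at 8.24 in 2i, 8.09 in Activin+PD and 8.39 in mEpiSCs, and Sall4, which binds with it, differed by -0.09. Lin28b, which blocks the maturation of let-7, was higher by at least 1.96, whereas its paralogue Lin28a was just inside 2-fold at 0.98. Utf1, a chromatin protein, was higher by 1.41. On the lower side, Dppa4 differed by -1.85 and Dnmt3l, the cofactor of the de novo methyltransferases, by -1.82.

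Single genes far from the rest came from many functions. Beside Fgf5, Dusp6, Sema6a and the Nodal antagonist gene Cer1, the genes more than 16-fold higher were Epha1, a receptor of the Eph family, at 5.75, 5.67 and 10.25 in 2i, Activin+PD and mEpiSCs, and Enpp3, an ectonucleotidase, at 7.45, 8.81 and 11.86. Fndc3c1, an X-linked gene, was higher by 4.23, the sialyltransferase gene St6gal2 by at least 4.38 and the zinc and manganese importer gene Slc39a8 by at least 4.36. The mEpiSC array alone was high for Epha1, Fndc3c1, St6gal2 and Slc39a8, while Enpp3 was also higher in Activin+PD than in 2i. The lipoxygenase gene Alox15 was higher by 3.74, the tubulin gene Tubb4a by 3.69, the neurofilament gene Nefl by 3.55 and the G protein-gated potassium channel gene Kcnj3 by 3.79, with 1.20 on a second probe set that was not above background in 2i. Calcr, the calcitonin receptor gene, was higher by at least 3.32.

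On the lower side the leading genes outside the naive list included zinc finger genes and secreted or membrane-bound proteins. Zfp640 stood at 11.84 in 2i, 11.46 in Activin+PD and 5.24 in mEpiSCs, where it was not above background, so it was lower by at least 6.27. Pla2g1b, a secreted phospholipase, was at 10.89, 10.83 and 6.04, and Nid1, a basement membrane linker, at 10.64, 10.75 and 6.29. These 3 genes were bright on both mESC arrays and near or below background in mEpiSCs. The epoxide hydrolase gene Ephx2 gave a graded order, with 10.27 in 2i, 8.40 in Activin+PD and 6.03 in mEpiSCs. Dpp4, a membrane peptidase, was lower by at least 3.39, the axonemal dynein gene Dnah8 by at least 4.005 and Spic, an Ets factor, by at least 3.52. Tet2, an enzyme that oxidises methylcytosine, differed by -3.62, and the glycerol channel gene Aqp3 by -3.23.

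The miRNA genes included a whole cluster that was higher in mEpiSCs and large clusters of which some members were lower. The comparison held 158 miRNA genes, of which 7 were higher and 16 lower by 2-fold or more, with a median of -0.081. All 5 members of the Mir302 and Mir367 cluster on chromosome 3 were higher. The array reads RNA from the gene, which is the precursor or its longer transcript, and not the mature miRNA. The mature sequences below are from RefSeq (GRCm38.p6), with the seed, bases 2 to 8, in capitals, and they are shown because the seed sets which transcripts a miRNA binds. The sequences for the Mir302 and Mir367 cluster come first, then miR-363-3p of the Mir106a to Mir363 cluster on the X chromosome and 3 members of the Mir290 to Mir295 cluster, the main miRNA cluster of mESCs.
miR-302b-3p: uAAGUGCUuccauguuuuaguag
miR-302c-3p: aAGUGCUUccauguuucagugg
miR-302d-3p: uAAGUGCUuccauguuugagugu
miR-367-3p: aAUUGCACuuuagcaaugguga
miR-363-3p: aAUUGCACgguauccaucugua
miR-291a-3p: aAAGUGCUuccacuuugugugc
miR-294-3p: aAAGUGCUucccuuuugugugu
miR-295-3p: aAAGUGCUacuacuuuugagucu
The seed AAGUGCU was shared by 5 of these, miR-302b-3p and miR-302d-3p on one side and miR-291a-3p, miR-294-3p and miR-295-3p on the other. RefSeq starts miR-302c-3p 1 base later in the same run of letters, so its seed reads AGUGCUU. The seed AUUGCAC was shared by miR-367-3p and miR-363-3p.

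Mir302c had a log2 level of 5.62 in 2i, 6.85 in Activin+PD and 9.08 in mEpiSCs, a difference of 3.47 between mEpiSCs and 2i. Mir302a was at 5.46, 6.02 and 8.78 and was higher by at least 3.19. Mir302d, Mir367 and Mir302b were higher by at least 1.93, 1.60 and 1.13. In 2i, 4 of the 5 members were not above background, and in Activin+PD, where Mir302c, Mir302a and Mir302d were above it, these 3 lay between 2i and mEpiSCs. Mir290a, the single member of the Mir290 to Mir295 cluster with a probe set under its own symbol, was at 8.30, 8.97 and 8.79 and stayed within 2-fold at 0.49. On the X chromosome, Mir18b and Mir363 of the Mir106a to Mir363 cluster were higher by at least 1.27 and 0.66, both dim, and they lay in a run of neighbours with the glypican genes Gpc3 (1.58) and Gpc4 (1.10). The related Mir17 to Mir92a cluster had 4 genes compared, and they differed by -0.07 to 0.05.

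Lower miRNA genes lay in large clusters on chromosomes 2 and 12. Of 22 genes of the Mir669, Mir466, Mir467 and Mir297 families of chromosome 2 on the array, 12 were compared. Of these, 7 were lower and 0 higher, with a median of -1.36. The genes left out as dim differed by -0.55 to 0.01. Mir669a-3, Mir466b-2 and Mir466b-3 passed only through the 2i array, so the median depends on the brightness filter. Mir669k was at 9.52 in 2i, 8.89 in Activin+PD and 7.62 in mEpiSCs, and its 8 other probe sets gave -2.09 to -1.77. In the imprinted Meg3-Mirg region of chromosome 12, 25 of 45 genes on the array were compared. Of these, 8 were lower and 0 higher, with a median of -0.52, and the genes left out as dim differed by -0.52 to 0.23. Among the lower ones, Mir1193, Mir300, Mir493 and Mir679 passed only through the 2i array. The count and the median of this region therefore depend on the brightness filter too. Mir453 was at 8.30, 7.69 and 6.52, and the long noncoding RNA gene Rian at 10.42, 9.51 and 8.85. In both regions the Activin+PD level lay between the other arrays for these genes. Meg3 itself differed by -0.33. The copies of the Mir669 and Mir466 families are near-identical, so a probe set may read several of them.

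**Figure D2:**
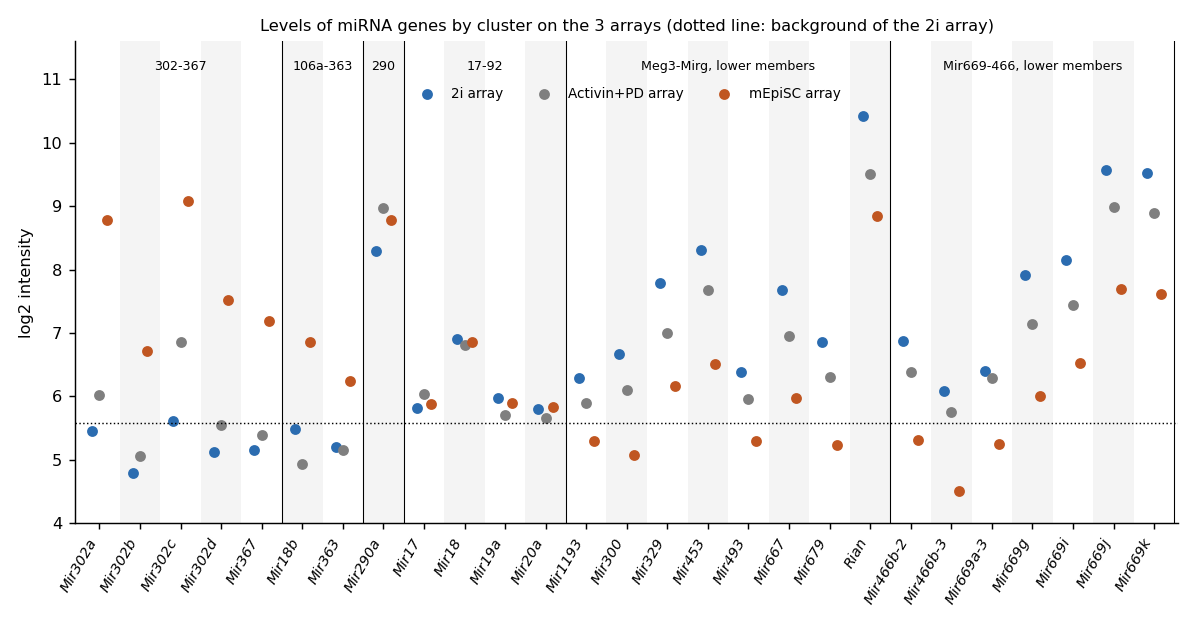
Log2 intensity (vertical axis) of miRNA genes and of Rian on the 2i (blue), Activin+PD (grey) and mEpiSC (orange) arrays, grouped by cluster: all members compared of the first 4 clusters, and the members at least 2-fold lower of the 2 large ones. In the Mir302 and Mir367 cluster the mEpiSC array was higher for all 5 genes (Mir302c at 9.08 against 5.62 in 2i), and the genes from Mir17 to Mir92a lay together. The members drawn of both large clusters were picked as lower in mEpiSCs than in 2i, and for them Activin+PD lay between. Members not drawn did not all keep that order, such as Mir673 at 7.99 in 2i, 7.66 in Activin+PD and 8.05 in mEpiSCs.

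Feedback inhibitors and targets of ERK were higher in mEpiSCs, the culture with bFGF and no MEK inhibitor. Among 28 of them, 15 were apart on the higher side and 1 on the lower, with a median of 1.06. The Sprouty and Spred inhibitors, which act between the FGF receptor and RAF, had 6 of 7 members higher and a median of 1.86. Spry2 was at 6.52 in 2i, 6.12 in Activin+PD and 9.29 in mEpiSCs, and Spred1 at 7.49, 6.90 and 9.35. In both, the Activin+PD array, which also had the MEK inhibitor, was below the 2i level, unlike Dusp6. The phosphatase gene Dusp4 was at 5.91, 6.28 and 9.10, and the early response gene Egr1 at 5.65 in 2i and 8.17 in mEpiSCs and not above background in Activin+PD. Myc was higher by 2.13, Jun by 1.77 and the Ets factor genes Etv1 and Etv4 by 1.47 (0.89 on a second probe set) and 1.09. Etv5 was higher by 2.25 on the probe set used, but a second probe set, above background on both arrays, gave -0.41. The lower member was the ephrin receptor gene Epha4, at 9.20, 7.90 and 7.10. Among upstream genes, the ligand gene Fgf8 was higher by 1.93 and Fgfbp1, which releases FGFs from the matrix, by 1.58, while Fgfr2 differed by -1.01. Of the MAP kinase family and its kinases 5 of 35 were higher, among them the p38 genes Mapk11 (1.44), Mapk12 (1.71) and Mapk13 (1.28), and Map4k1 was the 1 lower member at -1.03.

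Targets of Activin and Nodal were higher too, 12 of 22 compared, with 1 lower and a median of 1.09. Activin A was also in the Activin+PD medium, and the levels there differed between targets. The transcription factor genes Mixl1 and Lhx1 of the primitive streak were at 6.02 and 5.80 in 2i, 5.998 and 5.52 in Activin+PD, and 9.40 and 8.50 in mEpiSCs. Eomes was at 7.05, 6.85 and 9.43, and Gsc was higher by 1.15. These factors were high in mEpiSCs alone. The secreted Nodal antagonist gene Lefty1 was at 8.05, 10.69 and 9.07, and Lefty2 at 8.53, 10.75 and 7.01, so both were highest in Activin+PD, and Lefty2 was the list's lower member. Pmepa1 and Skil, which restrain SMAD signalling inside the cell, were higher by 1.59 and 1.24. None of 8 Smad genes compared was 2-fold apart.

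The other pathways showed fewer members apart, and often on both sides. Of 29 Wnt targets compared, 3 were higher and 4 lower (median -0.16). Cdx2, a caudal factor, was at 8.64 in 2i, 5.84 in Activin+PD and 5.91 in mEpiSCs, high on the 2i array alone, and Cdx1 had the same order with 7.62, 5.70 and 5.76. Notum, a Wnt-inactivating hydrolase, was instead at 8.54, 8.40 and 5.73, a difference of -2.81, with -1.03 on a dimmer second probe set. The Frizzled receptor genes Fzd7, Fzd6 and Fzd2 were higher by 2.20, 1.91 and 1.43, Fzd10 was lower by at least 1.88, and the ligand gene Wnt3 was higher by 2.68. In the LIF and STAT3 pathway, 5 of 22 were lower and 1 higher, with the kinase gene Pim2 higher by 2.20 and the receptor chains Il6st, Lifr and Il6ra at -2.07, -1.76 and -1.72. Hedgehog genes had 3 of 16 lower and 1 higher, with the receptor gene Ptch1 at -1.43 and its transcription factor gene Gli2 at -1.64, against Smo, the signal transducer, at 1.40. Of 28 genes of the Hippo pathway and its target set, 4 were higher and 1 lower, with the secreted YAP target Ccn1 at 7.55, 8.27 and 10.68, the scaffold gene Amot at 2.41 and Tead1 at -1.29.

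In retinoic acid metabolism, 3 of 20 genes were higher and 3 lower. Cyp26a1, which degrades retinoic acid, was higher by at least 1.99, and Aldh1a2, which makes it, was lower by at least 1.86. Of 38 secreted growth factors and cytokines, 2 were higher and 4 lower. Apln, a peptide ligand, was higher by at least 2.83, while Vegfc (-1.80), Pdgfc (-1.69) and Pdgfa (-1.64) were lower, and Kitl was lower by at least 1.24. Among receptor tyrosine kinases, 4 of 32 were higher, namely the VEGF receptor gene Flt1 (2.28), the collagen receptor gene Ddr1 (2.18), Met (by at least 1.58) and Erbb3 (1.03). The list's 2 lower members were Ror1 (-1.03) and Fgfr2. The BMP pathway had 2 of 22 members higher and 2 lower, with Id2 at 2.69 and Id4 at -2.48. Both are inhibitors of bHLH factors, so members of 1 family were apart in opposite directions.

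**Figure D3:**
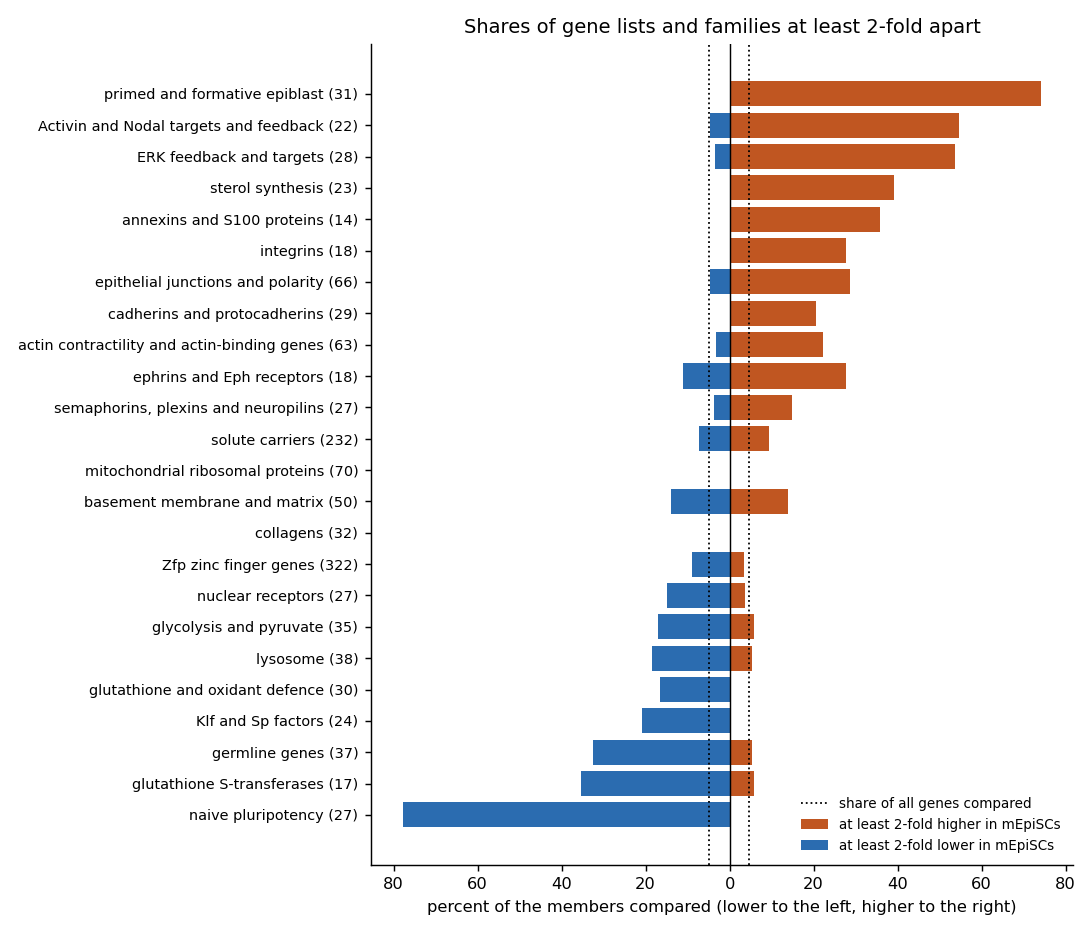
Percent of the members compared that were at least 2-fold higher (orange, to the right) or lower (blue, to the left) in mEpiSCs, for 24 gene lists and families with the number compared in brackets; dotted lines are the shares over all genes compared, 4.53% and 4.96%. The primed and naive lists mark the ends, junction, actin and sterol genes lie on the higher side, germline and glutathione S-transferase genes on the lower side, and the collagens and mitochondrial ribosomal proteins have 0 members apart.

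Epithelial junction and polarity genes were more often higher than lower, 19 of 66 compared, with 3 lower, 44 within 2-fold and a median of 0.33. Epcam, an adhesion molecule of epithelia, was at 7.74 in 2i, 7.49 in Activin+PD and 10.97 in mEpiSCs, and the claudin gene Cldn6 at 6.78, 6.64 and 9.77. For both, the mESC arrays were alike and the mEpiSC array was higher. The desmosome genes Dsp and Pkp2 were higher by 2.55 and 2.11, with Activin+PD levels of 8.01 and 8.44 between the others. The claudin gene Cldn7 was higher by 2.36, the apical sialomucin gene Podxl by 2.03 and Rab25, which recycles membrane to the apical side, by 2.16. The keratin genes Krt18, Krt8 and Krt19, which form the filaments of simple epithelia, were the 3 higher members of 25 keratins compared, with Krt19 at 1.40. Below 2i, beside Jam2, were Grhl3 (-1.74) and Llgl2 (-1.005), so the 3 lower members hold a junction molecule, an epithelial transcription factor and a basolateral polarity protein. The direction was not particular to epithelial genes. In a list of mesenchymal genes, 9 of 22 compared were higher and 2 lower, with a median of 0.57.

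Cell adhesion families outside the junctions were mostly on the higher side. Of 29 cadherins and protocadherins compared, 6 were higher and 0 lower. Cdh2, N-cadherin, was at 7.87 in 2i, 8.14 in Activin+PD and 9.27 in mEpiSCs, and a second probe set gave 1.21. Of 18 integrin chains, 5 were higher and 0 lower, with Itgb1 at 1.20 and Itga3 at 1.56, and Itga1 higher by at least 1.55. The immunoglobulin-like adhesion molecules were split, 4 of 44 higher and 4 lower, with Igsf9 (2.19) and Nrcam (1.76) against Ncam1 (-1.78). Of 18 ephrins and Eph receptors, 5 were higher and 2 lower. Besides Epha1, these were Epha2 (1.31), Epha7 (1.28) and the ligand genes Efnb2 (1.48) and Efna5 (1.28), against Epha4 and the ligand gene Efnb1 (-1.26). Of 27 semaphorins, plexins and neuropilins, 4 were higher, among them Sema3e at 2.02 and the receptor gene Plxnb1 at 1.61, and Sema4b was lower at -1.47.

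Matrix genes were apart in both directions. Of 50 basement membrane and matrix genes, 7 were higher and 7 lower, with a median of 0.16. Fn1, fibronectin, was at 11.69 in 2i, 11.53 in Activin+PD and 9.17 in mEpiSCs, and the matricellular gene Smoc1 at 8.85, 8.79 and 6.88. Lama1 was at 7.77, 6.11 and 6.12 and Lamb1 at 7.73, 9.06 and 9.47, so of 2 chains that can join in 1 laminin trimer, the alpha chain was low and the beta chain high on both arrays with Activin A. Thbs1, thrombospondin, was higher by at least 3.29, and the proteoglycan gene Sdc2 by 1.65, while Sdc4 differed by -1.19. None of 32 collagens compared was 2-fold apart. Of 40 metalloproteases and their inhibitors, 6 were higher, among them the membrane-anchored Mmp25 at 3.55 and Mmp14 at 1.85, and 2 lower, the inhibitor gene Timp1 at -1.79 and the sheddase gene Adam10 at -1.19.

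Actin-binding and contractility genes were higher, 14 of 63 compared, with 2 lower and a median of 0.37. Cnn1, calponin, was not above background in 2i, stood at 5.89 in Activin+PD and 9.10 in mEpiSCs, and was higher by at least 3.51. Zyx, a focal adhesion protein, was at 6.69, 6.60 and 9.13, and Tpm1, a tropomyosin, at 7.06, 8.002 and 9.23. The calponin relatives Cnn2 (2.12) and Tagln2 (1.60, with 0.89 on a second probe set), the tropomyosin gene Tpm4 (1.51, with 0.91 on a second) and the myosin light chain gene Myl9 (1.45) were also higher. Lima1 was at 9.91, 9.75 and 7.54 and Enah, which extends actin filaments, differed by -1.24. Markers of fibroblasts, which share some of these genes, had 3 of 17 members higher (Tagln 1.41, Mmp2 1.52, Twist1 1.52) and 0 lower. Of 7 defining fibroblast markers, 4 were above background on each array, Dcn, Lum and Postn on none, and the summed intensity was 361.9 in 2i, 372.5 in Activin+PD and 438.3 in mEpiSCs. Whether fibroblasts had a part in the actin result was not tested, and in bulk RNA fewer cells of a type and less RNA per cell cannot be told apart. Calcium-binding annexins and S100 proteins, which link membranes to the cytoskeleton, had 5 of 14 higher and 0 lower, led by S100a10 at 7.93, 9.70 and 10.94 and Anxa5 at 6.51, 7.03 and 9.01.

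Metabolic genes differed by pathway. Sterol synthesis had 9 of 23 genes higher and 0 lower, with a median of 0.94. Pmvk, which phosphorylates phosphomevalonate, was at 7.49 in 2i, 8.13 in Activin+PD and 9.52 in mEpiSCs, and Lss, which closes the sterol rings, at 8.81, 9.44 and 10.36. In both genes Activin+PD lay between, and Fdps (1.39), Cyp51 (1.39) and Hsd17b7 (1.30) had the same order. Fatty acid and lipid genes had 9 of 52 higher and 4 lower. The fatty acid carrier gene Fabp5 was at 5.84, 5.58 and 9.40, with 2.26 to 3.67 on 3 other probe sets, and the acyl-CoA synthetase gene Acsl5 was higher by 2.20. Cpt1a, which carries fatty acids into mitochondria for oxidation, was at 8.32, 8.59 and 5.73, its partner in that step Slc25a20 at 9.45, 8.85 and 6.69, and the mitochondrial acetyl-CoA synthetase gene Acss1 differed by -2.99. Within mitochondrial oxidation the genes differed in direction, since Acadl, an acyl-CoA dehydrogenase, was higher by 1.93 while Hadh, which acts later in the cycle, differed by -1.04.

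Of 35 genes of glycolysis and pyruvate use, 6 were lower, 17.1% against 4.96% of all genes. Another 2 were higher, 5.71% against 4.53%, and 27 were within 2-fold. Slc16a3, a lactate exporter, was at 6.99, 8.66 and 9.73, highest in mEpiSCs. The gluconeogenic phosphatase gene Fbp2 was at 8.80, 9.39 and 5.88, and Pfkp, a phosphofructokinase, at 10.11, 10.43 and 7.65. Hk1 and Ldhb differed by -1.74 and -1.85, and the glucose transporter gene Slc2a3 by -1.05. Of 71 respiratory chain subunits, 0 were higher and 1 lower, and of 70 mitochondrial ribosomal proteins 0 were apart. Solute carriers, the largest transporter family, had 22 of 232 higher and 17 lower. Amino acid transporters among the higher ones were Slc7a7 at 3.20, Slc6a15 at 1.84, Slc38a1 at 1.81 and Slc7a6 at 1.61. Lower carriers included the creatine transporter gene Slc6a8 at -1.89, the sugar exporter gene Slc50a1 at -2.67 and the zinc transporter gene Slc30a2, at 8.86 in 2i and 6.58 and 6.56 on the arrays with Activin A.

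Glutathione S-transferases, oxidant defence genes and lysosomal genes had more members lower than higher, although most members were within 2-fold. Of 17 glutathione S-transferases compared, 6 were lower and 1 higher. Gstm3 was at 7.98 in 2i, 6.43 in Activin+PD and 5.68 in mEpiSCs, Gstp2 differed by -1.52 and Gsta4 by -1.24, against the kappa enzyme gene Gstk1 at 2.05. Members of the Gstp and Gsta groups are close in sequence, and a probe set may read more than 1 of them. Of 30 genes of glutathione synthesis and oxidant defence, 5 were lower and 0 higher. The metallothionein genes Mt2 and Mt1, which bind zinc and copper, were at 12.35 and 11.66 in 2i, 11.95 and 10.94 in Activin+PD, and 9.89 and 9.98 in mEpiSCs. Nqo1, a quinone reductase, differed by -1.93 and Gss, glutathione synthetase, by -1.84. Lysosomal genes had 7 of 38 lower and 2 higher, with Hexa lower by at least 2.57, the cathepsin genes Ctsb and Ctsf at -1.27 and -1.16, and Lipa, the acid lipase, higher by 1.97. In other detoxification families, 3 of 32 cytochrome P450 genes were higher and 5 lower (median 0.04), 1 of 17 aldehyde dehydrogenases was higher and 2 lower, and 0 of 11 aldo-keto and carbonyl reductases were higher and 1 lower.

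Tubulins, kinesins, potassium channels and G protein signalling genes include many genes used in neurons. Their shares are to be read against 4.53% higher and 4.96% lower of all genes. Kinesins had 5.88% higher and 5.88% lower, potassium channels 7.84% and 1.96%, and Gpr and adhesion receptors 4.26% and 8.51%, all near those shares. Tubulins had 16.7% and 16.7%, and Rgs genes 25% and 0%, each of only 12 compared. Among 12 tubulins, 2 were higher and 2 lower, with Tubb4a at 5.95 in 2i, 6.72 in Activin+PD and 9.65 in mEpiSCs against Tubb3 (-1.18) and Tubb2b (-1.26). Of 34 kinesins, the motors of axonal transport Kif1a (3.31) and Kif21a (2.17) were higher and Kif5a (-1.78) and Kif13b (-1.07) lower. Potassium channel subunits had 4 of 51 members higher and 1 lower, with the leak channel gene Kcnk1 at 2.85 and Kcnk5 of the same kind at -1.84. Rgs proteins, which shorten G protein signals, had 3 of 12 higher and 0 lower. Receptors of the Gpr and adhesion classes had 2 of 47 higher and 4 lower, led by the latrophilin gene Adgrl2 (3.23) and the orphan receptor gene Gprc5a (-2.45).

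Of 66 glycosyltransferases, which build the sugar chains of the cell surface, 4 were higher (6.06%) and 6 lower (9.09%), against 4.53% and 4.96% of all genes. Galnt3, which starts O-linked chains, was at 5.62 in 2i and 8.80 in mEpiSCs and not above background in Activin+PD, while Galnt2, an enzyme of the same kind, differed by -1.18. The ganglioside synthase gene St8sia1 was lower by at least 2.35, and A4galt, which makes globosides, differed by -1.25, against the ganglioside enzyme gene B4galnt1 at 1.04. The set therefore held sialyltransferases of both directions, St6gal2 and St6gal1 (1.07) higher and St6galnac3 (-1.39) and St8sia1 lower.

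Growth and survival lists are to be read against 4.53% higher and 4.96% lower of all genes. The shares were 7.69% higher and 5.13% lower for the cell cycle list, and 10.3% and 0% for apoptosis. They were 5.88% and 5.88% for imprinted genes, and 3.45% and 10.3% for the threonine, glycine and one-carbon list. In the cell cycle list, 3 of 39 were higher and 2 lower, with the kinase gene Cdk6 at 1.93, the cyclin gene Ccnd2 at 2.31 and the inhibitor gene Cdkn2a at -1.69. Of 29 apoptosis genes, 3 were higher and 0 lower, namely Perp (2.45), the BH3-only gene Bcl2l11 (1.75) and its target gene Bcl2 (1.04). Imprinted genes had 2 of 34 higher and 2 lower, with the signalling adaptor gene Grb10 at 2.58 and Plagl1 lower by at least 1.53. The threonine, glycine and one-carbon list had 1 of 29 higher, the mitochondrial folate enzyme gene Mthfd2l at 2.29, and 3 lower, with the glycine cleavage gene Amt at -1.84 and Dmgdh lower by at least 2.43. None of 18 TNF ligands and receptors compared was 2-fold apart.

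Genes of antigen presentation, which T cells read out, were partly higher, 6 of 28 interferon and antigen presentation genes, with 3 lower. The immunoproteasome subunit gene Psmb10 was at 6.67, 6.94 and 8.71, and the class I gene H2-K1 at 6.41, 6.83 and 8.04. Tapbp, which loads peptides on class I molecules, was higher by 1.53, with 0.70 on a second probe set, and B2m, their light chain, by 1.01. The interferon-gamma receptor chain gene Ifngr2 was at 9.27, 8.32 and 6.99. Of 11 class I genes compared, H2-K1 and H2-Q4 (1.25, with 0.33 on a second probe set) were higher and the nonclassical H2-M5 was lower at -2.76.

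**Figure D4:**
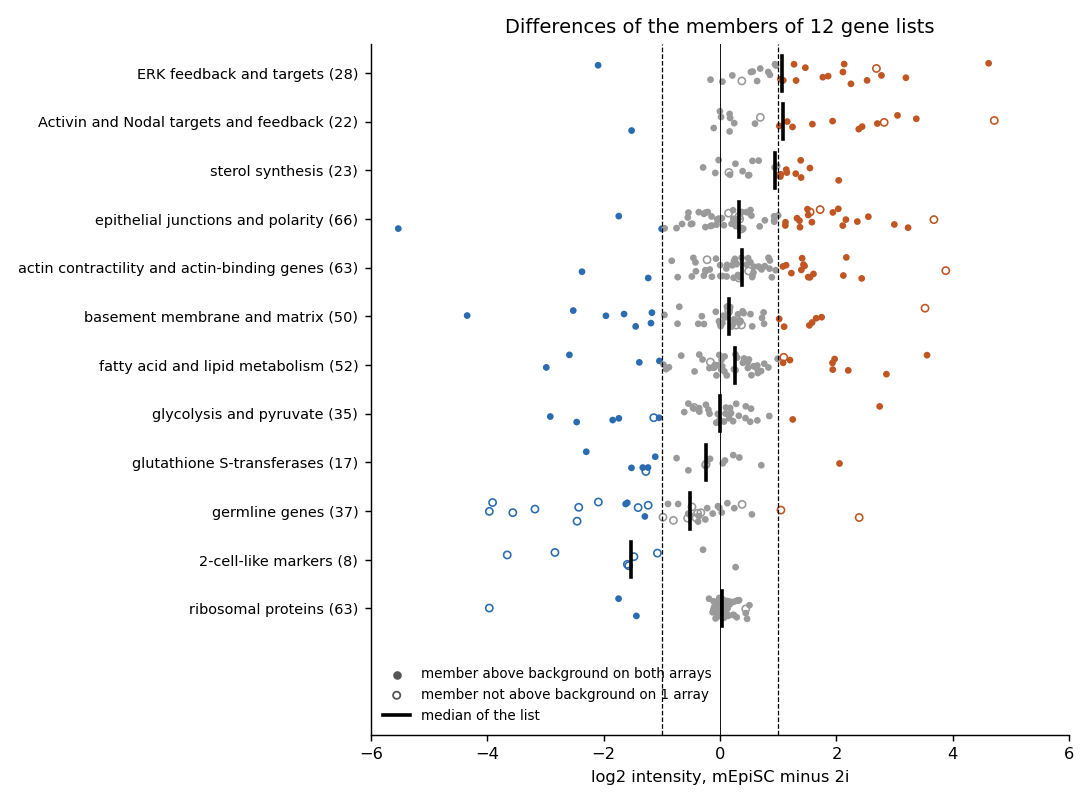
Difference in log2 intensity, mEpiSC minus 2i, of each member compared of 12 gene lists, with the number compared in brackets; orange and blue points are at least 2-fold apart (dashed lines), open points were not above background on 1 of the arrays and are drawn at their measured difference, and black bars are list medians. ERK, Activin and sterol medians lie at 1.06, 1.09 and 0.94, matrix members spread both ways, and nearly all ribosomal protein genes lie close to 0.

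Of 60 germline genes on the array, 37 were bright enough to be compared, 12 of them lower and 2 higher, with a median of -0.52. Most of the lower ones were not above background in mEpiSCs, so their differences are bounds. They passed the brightness filter only through the 2i array, where they were high, so the share and the median depend on that filter. Dazl, an RNA-binding protein of germ cells, was at 7.73 in 2i and 9.02 in Activin+PD and was lower in mEpiSCs by at least 2.16. The meiotic cohesin gene Rec8 was lower by at least 2.90, the piRNA pathway gene Tdrd12 by at least 3.49 and the germ cell transcription factor gene Sohlh2 by at least 3.31. Tdrd5, of the same Tudor family as Tdrd12, was higher by at least 2.23. The Tudor family thus had members on both sides.

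Testis-type copies of housekeeping genes were among the lower genes. Of 63 ribosomal protein genes compared, 3 were apart, all lower, and these were Rpl10l, lower by at least 3.50, Rpl39l at -1.74 and Rps4l at -1.44, which are extra copies of Rpl10, Rpl39 and Rps4x. Psma8, the proteasome subunit of spermatocytes, was at 7.19 in 2i, 7.49 in Activin+PD and 5.63 in mEpiSCs, and Cox6b2, a testis form of a respiratory chain subunit, differed by -1.31. These genes were picked out after their values were seen. Uba1y, the Y-linked ubiquitin-activating enzyme gene, was at 10.13, 9.08 and 5.87, and it was the 1 of 5 genes compared on the Y chromosome that was 2-fold apart, with Eif2s3y at -0.63 and Uty at -0.73. Of the X-inactivation genes, Ftx was higher by 1.53, and Xist was not above background on either array.

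Of 20 markers of the 2-cell-like state on the array, 8 were bright enough to be compared, 6 of them lower and 0 higher. All 6 were above background in 2i and not in mEpiSCs, so they passed only through the array where they were high. The median was -1.53 over those 8, against -0.26 for the median of 2-cell-like markers without the brightness filter. Zscan4e was at 8.19 in 2i and 8.70 in Activin+PD, and it was lower in mEpiSCs by at least 2.62. Zscan4b was lower by at least 2.13, Zscan4d by at least 1.52 and Zscan4c by at least 1.46. The Zscan4 genes are near-identical neighbours on chromosome 7, so the probe sets may not tell them apart. In DNA methylation, 1 of 23 genes was higher, Dnmt3b at 2.05, and 7 were lower, among them the deaminase genes Apobec2 (-2.55) and Apobec3 (-1.54) and Zfp57 (-1.17), which keeps imprints.

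Genes of the primitive streak and of endoderm were more often higher than lower. In the streak list of 24, 9 were higher and 2 lower (median 0.29), and of 27 endoderm genes 9 were higher and 1 lower (median 0.22). Foxa2 was at 6.25, 6.35 and 8.01 and Gata6 was higher by at least 1.502, while Sox17 was at 5.73, 5.63 and 6.22 and Gata4 at 6.66, 6.56 and 6.77. The endoderm regulators were thus higher for Foxa2 and Gata6 and within 2-fold for Sox17 and Gata4. Neuroectoderm genes had 4 of 28 higher and 4 lower, with Nes at 1.92, Crmp1 at 3.38, Sox1 at -0.03 and Pax6 at 0.03. Trophectoderm markers had 4 of 18 higher (Krt8, Krt18, Krt19 and Eomes, which other lists hold too) and 2 lower, with Elf5 not above background on any array. The summed intensity of 4 defining endoderm markers was 268.7 in 2i, 263.6 in Activin+PD and 578.4 in mEpiSCs, and that of 3 neuroectoderm markers 282.5, 312.0 and 718.8. For 4 trophectoderm markers the sum was 575.4, 377.3 and 279.5, lowest in mEpiSCs. A sum of intensities leans on its brightest member, and Cdx2, a trophectoderm gene also held by the Wnt targets, differed by -2.73. The order of this sum therefore need not hold for trophectoderm markers other than Cdx2. Whether a share of differentiating cells had a part in these values was not tested.

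Zinc finger genes of the Zfp family stood out by their number on the lower side. Of 322 compared, 29 were lower, 9.01% against 4.96% of all genes, and 11 were higher, 3.42% against 4.53%. The higher members included Zfp36, Zfp36l1 and Zfp36l2, which bind RNA and promote its decay, at 2.13, 1.35 (0.68 on a second probe set) and 2.46, while the placental member Zfp36l3 was lower at -1.71. Among other factor families, 5 of 24 Klf and Sp factors were lower and 0 higher, with Klf8 at -2.66 and Klf9 at -1.26. Of 27 nuclear receptors, 4 were lower and 1 higher. None of 14 Hox genes compared was 2-fold apart.

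Many of the lower zinc finger genes were neighbours. Over the 14125 genes compared that could be placed on a chromosome, 32 runs of at least 3 neighbouring genes were apart in the same direction, 10 of them higher and 22 lower, with 118 genes in all. The longest run, 10 genes on chromosome 4, was lower throughout and held, in order, Zfp600, Zfp992, Zfp981, Gm21082, Rex2, Zfp982, Zfp985, Zfp979, Zfp534 and Zfp984. Zfp981 was at 10.81 in 2i, 10.94 in Activin+PD and 5.29 in mEpiSCs, and Rex2 at 10.59, 10.43 and 6.93. Both mESC arrays were high and close together, Zfp981 was not above background in mEpiSCs, and the mEpiSC array was lower by at least 5.24 for Zfp981 and by a difference of -3.66 for Rex2. The smallest differences in the run were those of Zfp984 at -1.54 and Gm21082 at -1.89. Of the 3 probe sets of Zfp979, the dimmer ones gave -1.32 and, with both arrays below background, no value.

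The promoters of these neighbours are alike in sequence, and a pair is shown because the genes were apart in the same direction. Each window runs from 250 bases before to 50 bases after the start site, from RefSeq (GRCm38.p6), and capitals mark the longest stretch that both share. Rex2 is at chr4:147021600-147021899 and Zfp981 at chr4:146514670-146514969, both on the plus strand.
Rex2: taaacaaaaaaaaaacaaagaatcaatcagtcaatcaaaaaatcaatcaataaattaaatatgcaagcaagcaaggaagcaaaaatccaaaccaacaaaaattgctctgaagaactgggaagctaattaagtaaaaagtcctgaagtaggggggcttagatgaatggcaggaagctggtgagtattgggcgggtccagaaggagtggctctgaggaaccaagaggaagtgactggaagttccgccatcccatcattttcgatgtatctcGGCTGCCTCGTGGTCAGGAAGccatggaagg
Zfp981: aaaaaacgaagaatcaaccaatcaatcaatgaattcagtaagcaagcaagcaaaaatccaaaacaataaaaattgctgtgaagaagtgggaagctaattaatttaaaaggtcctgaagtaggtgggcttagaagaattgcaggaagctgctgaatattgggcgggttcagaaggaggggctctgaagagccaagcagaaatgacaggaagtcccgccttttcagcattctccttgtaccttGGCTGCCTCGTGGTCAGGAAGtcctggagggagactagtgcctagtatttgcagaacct
The shared stretch is 21 bases long and begins 20 bases after the start site in Rex2 and 9 bases before it in Zfp981, and the windows are 78% identical when aligned. Of the 10 genes, 8 had a promoter in the RefSeq table, and their 28 pairs were 69.7% to 99.7% identical with a median of 80.5%. The same 8 promoters set against those of Zfp42, Fgf5 and Dusp6 were 48.7% to 58.3% identical. Whether the probe sets tell the neighbouring copies apart was not tested.

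**Figure D5:**
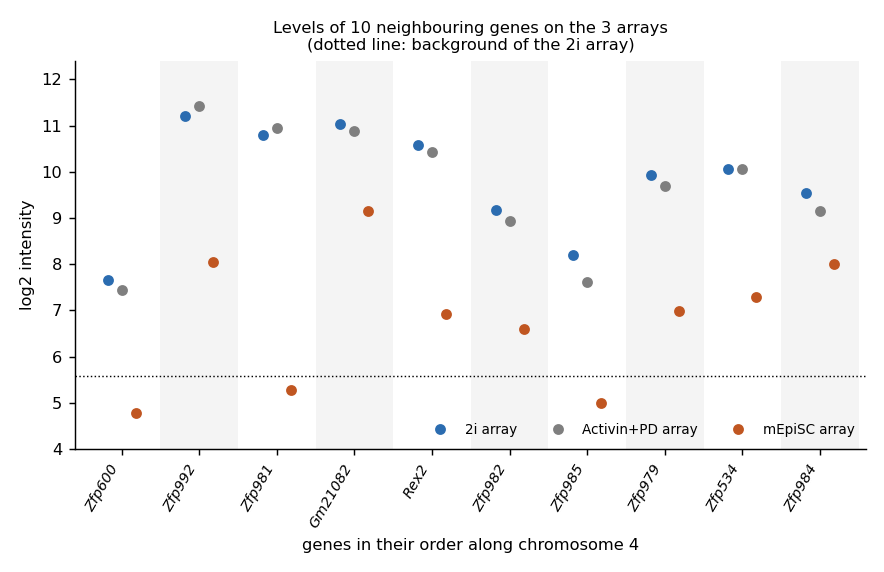
Log2 intensity (vertical axis) of the 10 genes of the longest run of neighbours, in their order along chromosome 4, on the 2i (blue), Activin+PD (grey) and mEpiSC (orange) arrays. For every gene both mESC arrays lie closer to each other than to the mEpiSC array, and the mEpiSC array lies below them, for Rex2 at 6.93 against 10.59 in 2i.

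Other runs joined genes of like or unlike kinds. On chromosome 8, Triml1 and Triml2, neighbours of Zfp42, were lower by at least 2.50 and 3.20. On chromosome 13, Gm7762 was at 9.74, 9.32 and 5.71, with a difference of -2.12 on a second probe set, next to Gm10324, lower by at least 5.06, and 2410141K09Rik at -2.27. The Pramel genes of chromosome 4, Pramel14, Pramel30 and Pramel13, were lower by at least 0.11 and 2.68 and, for the last, at -2.66. On the higher side, the carbonic anhydrase genes Car13, Car3 and Car2 of chromosome 3 differed by 1.01, 2.19 and 2.72, and Car3 by 1.12 on a second probe set. Car2 stood at 9.001 in 2i, 9.66 in Activin+PD and 11.72 in mEpiSCs. On chromosome 6, Zyx and Epha1 lay next to Fam131b, higher by at least 1.15, so an actin-binding protein and an Eph receptor formed part of 1 run. A run of 6 genes on chromosome 14, from Lamtor3-ps (2.41) to Gm38418 (2.46), was higher throughout. Lamtor3-ps stood at 6.64 in 2i, 8.83 in Activin+PD and 9.05 in mEpiSCs, so both arrays with Activin A were high.

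Promoter letters differed between the groups in a few respects. Among promoters of genes compared, an ETS motif (CCGGAAGT, both strands) was found in 6.96%, against 2.25% for the higher genes, 2.29% for the lower genes and 3.89% of all promoters. The OCT motif ATGCAAAT was found in 1.34%, 1.77%, 3.15% and 1.74% in that order. The TEAD motif CATTCC was found in 12.6%, 14.4%, 15.6% and 14.7%, the AP-1 motif TGANTCA in 5.29%, 6.42%, 6.73% and 7.81% and the TCF/LEF motif CTTTGAT in 2.51%, 1.77%, 1.86% and 3.73%. The median number of CpG per promoter was 19 for genes compared, 19 for higher and 14 for lower genes. Promoters with 5 or fewer CpG made up 15.3%, 12.4% and 25.1%. The windows numbered 13979 for genes compared, 623 for higher genes, 698 for lower genes and 32851 in all. A match is a run of letters in a 300-base window and describes no binding.

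Among autosomes and the X, the X chromosome had the highest shares of genes apart, 10.4% higher and 7.63% lower of 472 compared. By gene type, 627 protein-coding genes were higher and 640 lower of 13137. Of 556 long noncoding RNA genes 7 were higher and 25 lower, and of 103 transcribed pseudogenes 0 and 9. For long noncoding RNA genes the lower share was slightly under the 4.96% of all genes compared. Only their higher share departed from all genes, as it was well under 4.53%.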

How the data were processed

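Total RNA of each culture was hybridised to 1 Affymetrix Mouse Gene 2.0 ST array, per the labels. The values used were the deposited intensities, 1 per probe set, summarised with RMA per the submitters' processing notes; the series' design text names GeneSpring. They are on a linear scale and similar but not identical in distribution between arrays, and whether a constant was added before deposit is not known. An added constant would make differences of dim genes smaller. The genome build of the probe design was not given in the sources used here.

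Log2 was taken with no further normalization. Of 33793 probe sets, 23521 were paired with a single symbol in the platform annotation, and 23328 of these were updated or matched through RefSeq. A gene's level was that of its brightest single-symbol probe set, by the mean of all 3 arrays. Genes were compared where the brighter of both arrays was above its background, and counted as apart at 2-fold. Python 3.11.15, numpy 2.4.6 and pandas 2.3.3 were used, and the counting was tested on simulated data.

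The members and the 137 gene lists and symbol families, 46 by name and 91 by symbol pattern, were chosen with earlier results of these data known. Genes that share a family's letters but are no members, such as binding proteins, antisense RNAs, assembly factors and pseudogenes, were left out of the families described, a choice made after the values were seen. Named were the check markers, the genes farthest apart, the members farthest apart in each list, all members of small lists, members of runs of neighbours and genes at the 2-fold limit. The miRNA clusters, Meg3 and Mir290a were chosen after their values were seen. Alternatives tried were a floor at background, 16 subtracted before log2, no filter, a background at the 99th percentile, quantile normalization, median centring, the mean of a gene's probe sets, and fold limits of 1.5 and 4. Brachyury was not analysed here.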

Additional observations from a re-analysis of the deposited data

Results flagged for a closer look

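Probe sets that the gene comparison did not use also differed between mEpiSCs and 2i. Of 2830 probe sets above background that the platform annotation does not list, 77 were at least 2-fold higher and 125 lower in mEpiSCs. Of 1141 paired with several symbols, 52 were higher and 69 lower. They are unnamed here, and no control array was available to set them against.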

How the results depend on the processing

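No paired analysis was possible because each group has 1 array. The counts of 644 genes higher and 705 lower moved most with the fold limit, to 1351 and 1456 at 1.5-fold and to 154 and 181 at 4-fold. Under the other alternatives they lay between 604 and 826 higher and between 662 and 882 lower, both ends from the floor at background and from subtracting 16. Lists of at least 10 compared members whose median lay at least 0.5 from 0 numbered 8, and 14 with the background at the 99th percentile, where fewer genes were compared. The differences of 1790 named genes were each recomputed under 7 alternatives, and a case is 1 gene under 1 alternative. In 345 cases the difference moved by more than the probe set standard deviation, in 12185 it did not, and 0 reversed. The moves came from subtracting 16 (228), the floor at background (76) and the mean of the probe sets (41). Dropping the filter or raising the background percentile cannot change a difference, and median centring shifts all by 0.030. Subtracting 16 keeps the brighter array brighter. No reversal was possible under any of these alternatives. A reversal was also counted only where the main difference was at least the probe set standard deviation of 0.36. Over the same alternatives, list medians moved in 20 cases, and the members counted per list moved by over 1.5 times in 27 cases on the higher and 32 on the lower side, each where at most 3 members had been counted. With the background at the 99th percentile, which leaves out more dim genes, the median of germline genes became -1.29 and the median of glutathione S-transferases -1.11. The difference of Etv5, averaged over its probe sets, came to 0.92 and was no longer 2-fold apart. Genes near background have the least certain differences, and a single array per culture gives no measure of variation between cultures.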
